A study of Mus musculus with 15 samples.

Results

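The BCL-2 family decides whether the mitochondrial route of cell death opens, and its transcripts were followed here in mouse regulatory T cells (Treg cells) that had lost DOCK8 and in Treg cells that had kept it. The 10 genes were chosen by symbol: the survival genes Bcl2, Bcl2l1 and Mcl1, the pore-forming genes Bax and Bak1, and the BH3-only genes Bcl2l11, Bid, Bbc3, Pmaip1 and Bad. Each symbol was matched to 1 Ensembl gene identifier, and all 10 were found among the 30949 genes listed for all 15 libraries. All 10 also passed the filter on low values (at least 1 TPM in at least 2 libraries), which left 29989 genes for testing.

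The Treg cells, sorted as carrying CD25 and CD39, came from the spleens and lymph nodes of female mice on the C57BL/6 background with the genotype Foxp3YFP-Cre/+ Dock8flox/flox, whose age is not given in the sources used here. Cre is made from the Foxp3 gene on 1 of the X chromosomes, so each female holds YFP+ Treg cells that delete Dock8 (KO) and YFP- Treg cells that do not (WT), and the KO cells also carry the YFP-Cre protein that WT cells lack. After 16 h in culture, Smart-Seq2 libraries were made from KO cells with beads that bind CD3 and CD28 (n = 2), WT cells with these beads (n = 3), KO cells in medium alone (n = 6) and WT cells in medium alone (n = 4), with 1 bead per cell. The labels call most of these samples independent but do not say whether they came from separate mice, so p-values measure only the spread between libraries. The deposited values are TPM, transcript abundances corrected for length and scaled to a fixed total per library, which keep no read depth, so depth is unknown.

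As background, BCL-2, BCL-XL (from Bcl2l1) and MCL-1 hold the pore formers BAX and BAK in check. The BH3-only proteins bind the survival proteins through a short helix, the BH3 domain, and some of them also switch on BAX and BAK. Treg cells depend on signals from the interleukin-2 receptor and the T cell receptor for their survival, and MCL-1 and BIM (from Bcl2l11) are the opposing pair best known to set their number.

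The coding bases of the BH3 domain are shown because this helix is the part through which the products of these genes meet. Each line gives 45 bases of the reading frame, from GENCODE vM21 on GRCm38, with the 6 codons of the BH3 core in capitals (leucine, any 3 residues, then glycine, alanine or serine, then aspartate).
Bcl2: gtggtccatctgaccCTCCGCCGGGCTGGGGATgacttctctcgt
Bcl2l1: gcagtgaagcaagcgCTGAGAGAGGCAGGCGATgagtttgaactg
Mcl1: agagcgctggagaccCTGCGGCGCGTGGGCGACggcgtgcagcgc
Bax: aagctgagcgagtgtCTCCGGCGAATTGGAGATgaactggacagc
Bak1: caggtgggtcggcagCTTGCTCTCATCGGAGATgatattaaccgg
Bcl2l11: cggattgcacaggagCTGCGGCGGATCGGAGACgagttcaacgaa
Bid: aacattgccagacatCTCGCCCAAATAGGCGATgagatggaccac
Bbc3: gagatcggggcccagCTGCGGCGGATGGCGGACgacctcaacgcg
Bad: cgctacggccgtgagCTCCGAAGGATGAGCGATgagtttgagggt
The core was found exactly 1 time in the reading frame of each of these 9 genes. Over the 36 pairs of genes, between 7 and 15 of the 18 core bases were the same, and 4 positions were the same in all 9. The core began at codon 90 of Bcl2l1, codon 63 of Bax and codon 150 of Bcl2l11. The sequence of Pmaip1 is not shown.

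Several facts of the libraries bear on every value that follows. Dock8 was present at 5.82 and 7.90 TPM in KO cells with beads, against 8.71, 8.91 and 10.1 TPM in WT cells with beads (exact two-sided permutation test, p = 0.1, the smallest that 10 assignments allow). Without beads it spanned 6.70 to 11.9 TPM in KO cells and 9.15 to 22.0 TPM in WT cells (log2 difference -0.67, exact two-sided permutation test, p = 0.019). Genes with predicted symbols (Gm followed by digits, 8990 of them) held 33.4% to 40.1% of TPM in KO cells with beads, 27.4% to 31.7% in WT cells with beads, 58.6% to 75.0% in unstimulated KO cells and 44.9% to 67% in unstimulated WT cells. Every TPM of another gene is lowered by that share, so bead and genotype differences were also computed under 4 other scalings. Treg markers (Foxp3, Il2ra, Entpd1, Ctla4, Ikzf2, Cd3e and Cd4) summed to 750 to 771 TPM in KO cells with beads, 810 to 875 TPM in WT cells with beads, 301 to 478 TPM in unstimulated KO cells and 417 to 674 TPM in unstimulated WT cells. Foxp3 itself was lower in every KO library than in any WT library of the same culture. It was 42.2 and 42.7 TPM in KO cells with beads, against 88.6 to 105.8 TPM in WT cells with beads (log2 difference -1.19, adjusted p = 1, limma). Without beads it was 6.29 to 26 TPM in KO cells and 29.3 to 51.6 TPM in WT cells (log2 difference -1.71, adjusted p = 0.0646, limma), and its part in the genotype comparisons was not tested. Among markers of other cells, B cell genes summed to at most 32.1 TPM in any library. Myeloid genes summed to at most 8.80 TPM and neutrophil genes to at most 15.1 TPM. The neutrophil sum was 0.542 to 4.93 TPM in KO cells with beads and 0 to 3.08 TPM in WT cells with beads. The myeloid sum left out Lyz2, listed for bead libraries alone. Left out of the neutrophil sum were Ly6g and Mpo, listed for unstimulated libraries alone. CD8 T and NK cell genes summed to 16.0 to 33.4 TPM in KO cells with beads, 12.2 to 18.7 TPM in WT cells with beads, 25.1 to 45.3 TPM in unstimulated KO cells and 27.0 to 55.2 TPM in unstimulated WT cells. Stromal genes summed to 14.1 to 28.3 TPM in KO cells with beads, 14.5 to 23.5 TPM in WT cells with beads, 27.6 to 79.4 TPM in unstimulated KO cells and 39.7 to 59.0 TPM in unstimulated WT cells. Pecam1 averaged 36.6 TPM in unstimulated KO cells and 39.4 TPM in unstimulated WT cells, where no other stromal gene averaged over 5.93 TPM. Klrb1c averaged 21.5 and 22.3 TPM in the same order, where no other CD8 T and NK cell gene averaged over 7.31 TPM. Of these lists, Cd8a, Klrb1c and Pecam1 were called lower with beads in WT cells and none in KO cells, and their part in the bead responses was not tested. In these bulk samples, fewer cells of a type and less RNA per cell cannot be told apart.

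TPM are per length, so levels can be set side by side between genes. Bax was the most abundant of the 10 in every group, and its range did not overlap that of the next gene in any of them. In unstimulated KO cells Bax was followed by Bcl2, Mcl1, Bcl2l11 and Bid, whose mean levels lay between 10.8 and 12.6 TPM and whose ranges overlapped. In unstimulated WT cells the ranges of neighbours overlapped from Mcl1 (mean 13.3 TPM) down to Pmaip1 (mean 5.58 TPM). Bak1 and Bbc3 came last there, with means of 1.22 and 0.671 TPM. With beads Bcl2l1 moved to the second place, with mean levels of 64.3 TPM in KO cells and 62.1 TPM in WT cells, and in both its range lay clear of the genes above and below it.

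**Figure D1:**
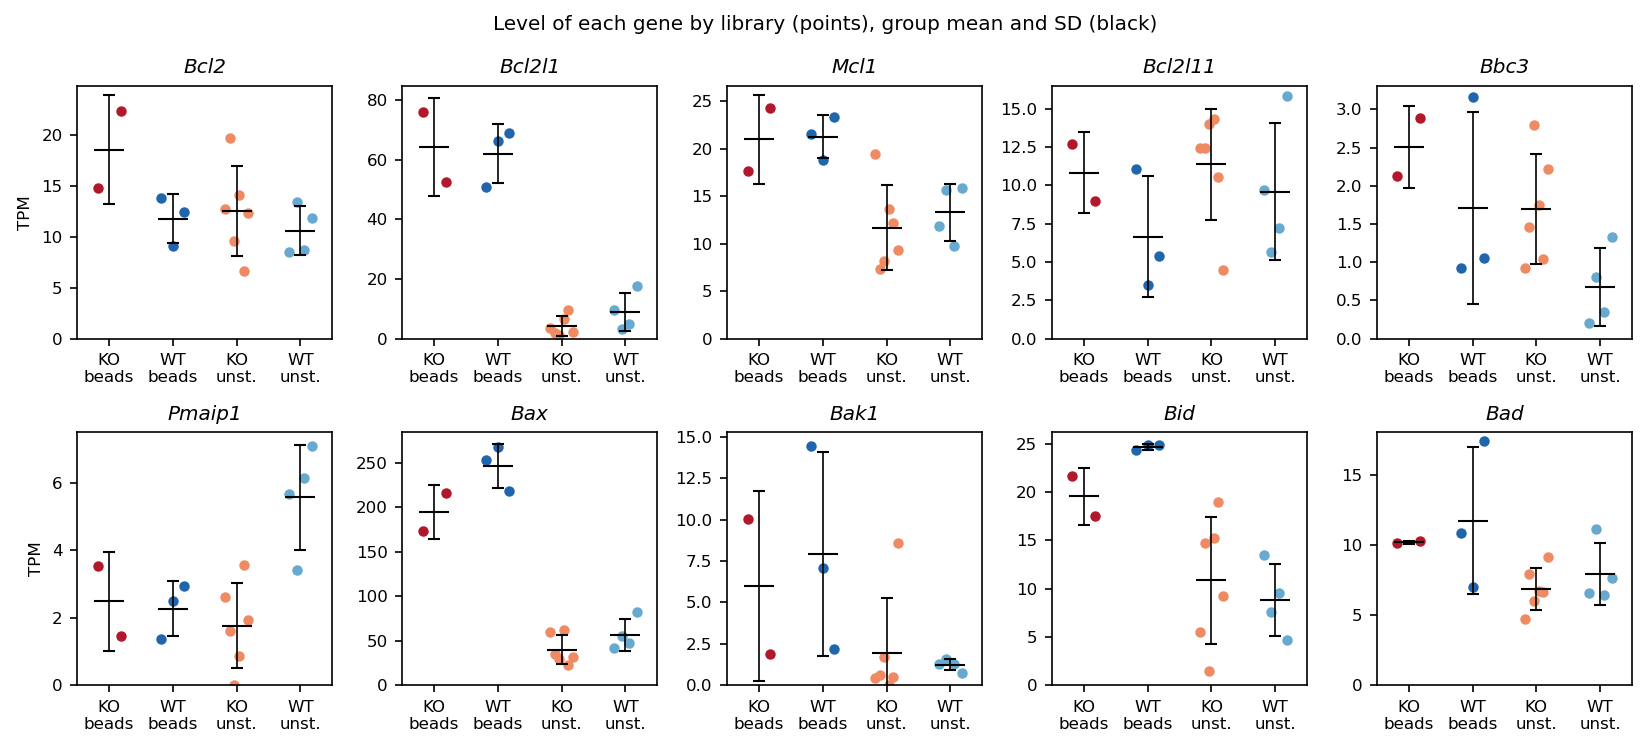
Level of each of the 10 genes in TPM (y axis, own scale per gene) in every library (points), with the group mean and SD in black, for KO and WT cells with beads and KO and WT unstimulated cells (unst.). Bcl2l1 and Bax with beads lie above every unstimulated library, while bead and unstimulated libraries of the same genotype overlap for Bcl2 and Bcl2l11.

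The first question was how T cell receptor and CD28 stimulation changes these genes, and Bcl2l1 and Bax rose in both kinds of cell. They were the 2 of 10 called higher with beads in KO cells, where 5.95% of all tested genes were called higher (8.11% in either direction), and the 2 of 10 called higher with beads in WT cells, where 4.6% were (11.2% in either direction; limma, Benjamini-Hochberg adjusted p under 0.05). None of the 10 was called lower in either, against 2.15% of all genes in KO cells and 6.63% in WT cells. With a filter of at least 5 TPM in at least 2 libraries, 17.3% of genes were called in KO cells and 22.6% in WT cells. The median log2 difference of the 10 was 0.71 in KO cells and 0.66 in WT cells, against -0.23 and -0.44 over all genes. Over the 5937 genes whose mean reached 20 TPM in some group, the median was 0.74 in KO cells and 0.19 in WT cells. Under the 4 other scalings the median of the 10 lay between -0.025 and 0.86 in KO cells, negative only after rescaling without predicted genes, and between 0.25 and 1.14 in WT cells. The bead and unstimulated libraries also differed in their predicted-gene share, as given above, and the split of all calls moved with the scaling. In KO cells 1785 genes were called higher and 646 lower as deposited, against 2259 and 546 under median-ratio scaling, 1275 and 1836 under scaling to abundant genes, 1361 and 876 after quantile normalization, and 825 and 2629 after rescaling without predicted genes. In WT cells 1378 were called higher and 1988 lower as deposited, against 2543 and 617, 1463 and 1722, 1201 and 896, and 746 and 3745 under the same 4 scalings in that order.

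Bcl2l1 encodes BCL-XL, the survival protein that activated T cells are known to make. It had 76.0 and 52.6 TPM in KO cells with beads, against a lowest, median and highest of 1.28, 2.93 and 9.68 TPM in unstimulated KO cells. All libraries with beads lay above all without, and the log2 difference was 3.85 (SE 0.60, adjusted p = 0.00121, limma). In WT cells it had 50.8, 66.4 and 69.0 TPM with beads, against 9.51, 3.30, 4.79 and 17.6 TPM without. These groups were also apart, with a log2 difference of 2.90 (SE 0.56, adjusted p = 0.00437, limma). Under the 4 other scalings the difference was called each time, at 3.23 to 4.00 in KO cells and 2.35 to 3.49 in WT cells.

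Bax encodes a pore former of the outer mitochondrial membrane. It had 173 and 216 TPM in KO cells with beads, against 22.6, 33.0 and 61.5 TPM (lowest, median and highest) in unstimulated KO cells. The log2 difference was 2.35 (SE 0.38, adjusted p = 0.00151, limma), and no bead library fell within the unstimulated range. In WT cells it had 253, 267 and 218 TPM with beads, against 41.2, 55.3, 47.2 and 82.1 TPM without. The groups did not overlap, and the log2 difference was 2.15 (SE 0.35, adjusted p = 0.00184, limma). The 4 other scalings called it each time, at 1.46 to 2.51 in KO cells and 1.49 to 2.77 in WT cells. With KO bead library 5 left out, the KO difference was 2.19 with an adjusted p of 0.0556, so that the KO call then rested on Bcl2l1 alone.

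The promoters of these 2 genes are shown because the genes rose together. Each window holds 250 bases before a RefSeq start on GRCm38.p6, 5′ to 3′ on the gene's strand, with motif matches on either strand in capitals. Motifs searched were CACGTG (E-box), GTAAACA (FOXO), TTCNNNGAA (STAT) and the kappa B motif.
Bcl2l1, chr2:152830718-152830967, minus strand: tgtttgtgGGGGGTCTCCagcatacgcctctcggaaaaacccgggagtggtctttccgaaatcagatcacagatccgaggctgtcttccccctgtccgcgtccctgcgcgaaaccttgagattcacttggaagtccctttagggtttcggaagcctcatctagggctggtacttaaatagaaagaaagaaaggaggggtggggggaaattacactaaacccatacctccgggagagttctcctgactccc
Bax, chr7:45466899-45467148, minus strand: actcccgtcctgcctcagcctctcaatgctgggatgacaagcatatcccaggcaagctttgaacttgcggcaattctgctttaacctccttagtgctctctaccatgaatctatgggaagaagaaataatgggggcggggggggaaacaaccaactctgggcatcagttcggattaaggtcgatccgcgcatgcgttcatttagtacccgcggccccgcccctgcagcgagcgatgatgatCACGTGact
The Bcl2l1 window holds 1 kappa B match, which begins at position -242 from the start, and this window is 1 of 3 for the gene, the other two without a match. The Bax window holds 1 E-box, which begins at position -9. Over 15 windows of 9 of the genes, the E-box, FOXO and kappa B motifs each had a match in 2 windows and the STAT motif in 0. Among 32851 promoter windows of the same length, 6.02% hold the E-box, 3.17% the FOXO motif, 3.90% the kappa B motif and 7.02% the STAT motif. The other matches were a FOXO motif for Bcl2l11 and an E-box, a FOXO motif and overlapping kappa B matches for Bbc3. None of these matches overlapped a match to another motif. A match describes letters and does not show that a factor binds.

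The other survival genes had smaller differences with beads. Mcl1, whose short-lived product Treg cells need, had 17.7 and 24.3 TPM in KO cells with beads, against 7.37, 10.8 and 19.4 TPM (lowest, median and highest) without. These groups overlapped through 1 unstimulated library (log2 difference 0.85, SE 0.36, adjusted p = 0.184, limma). In WT cells Mcl1 had 21.6, 18.9 and 23.4 TPM with beads, against 11.9, 15.7, 9.79 and 15.9 TPM without. The WT groups did not overlap, yet the difference of 0.66 (SE 0.34) had an adjusted p of 0.23 in limma. It reached 1.25 with an adjusted p of 0.0171 under median-ratio scaling and was 0.022 after rescaling without predicted genes.

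Bcl2, the founding survival gene of the family, had 14.8 and 22.4 TPM in KO cells with beads, against 6.68, 12.6 and 19.8 TPM (lowest, median and highest) without. In WT cells it had 13.8, 9.16 and 12.5 TPM with beads, against 8.52, 13.4, 8.74 and 11.8 TPM without. The groups overlapped in both kinds of cell. The log2 difference was 0.57 in KO cells (95% interval -0.23 to 1.37) and 0.14 in WT cells (95% interval -0.60 to 0.89), and both turned negative after rescaling without predicted genes (-0.30 and -0.50).

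Among the BH3-only genes, Bid, whose product links death receptors to mitochondria, had 21.7 and 17.5 TPM in KO cells with beads, against 1.505, 11.97 and 18.9 TPM (lowest, median and highest) without. In WT cells Bid had 24.3, 24.9 and 24.9 TPM with beads, against 13.5, 7.57, 9.51 and 4.65 TPM without. The WT libraries with beads all lay above those without, and the KO libraries overlapped. The log2 difference was 1.07 in KO cells (SE 0.62, adjusted p = 0.347, limma) and 1.47 in WT cells (SE 0.58, adjusted p = 0.118, limma). In WT cells Bid was called in 5 of 28 alternative settings, with adjusted p over all of them from 0.0299 to 0.352.

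Bcl2l11 encodes BIM, which binds every survival protein of the family and is restrained by cytokine signals. It had 12.7 and 8.98 TPM in KO cells with beads, against 4.48, 12.4 and 14.4 TPM (lowest, median and highest) without. In WT cells it had 11.1, 3.51 and 5.38 TPM with beads, against 9.66, 5.68, 7.20 and 15.8 TPM without. Both sets overlapped broadly. The 95% interval of the log2 difference ran from -1.03 to 1.01 in KO cells and from -1.46 to 0.45 in WT cells.

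Pmaip1 encodes NOXA, a BH3-only protein that binds MCL-1. It had 3.53 and 1.45 TPM in KO cells with beads, against 0, 1.78 and 3.58 TPM (lowest, median and highest) without. In WT cells it had 1.38, 2.48 and 2.95 TPM with beads, all under the 5.66, 3.42, 6.15 and 7.10 TPM without. The log2 difference was 0.42 in KO cells (adjusted p = 0.703, limma) and -1.01 in WT cells (adjusted p = 0.209, limma). Bak1, the other pore former, had 10.0 and 1.90 TPM in KO cells with beads, against 0 to 8.60 TPM without. In WT cells Bak1 had 14.5, 7.06 and 2.21 TPM with beads, against 0.755 to 1.59 TPM without. The spread among bead libraries was wide, and the adjusted p was 0.313 in KO cells and 0.139 in WT cells (limma).

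Bad, a BH3-only gene whose product is switched off by survival kinases, had 10.1 and 10.2 TPM in KO cells with beads, against 4.72 to 9.13 TPM without. In WT cells Bad had 10.8, 7.001 and 17.4 TPM with beads, against 6.41 to 11.1 TPM without. Bbc3, which encodes the p53 target PUMA, had 2.13 and 2.89 TPM in KO cells with beads, against 0.920 to 2.80 TPM without. In WT cells Bbc3 had 0.918, 3.16 and 1.05 TPM with beads, against 0.200 to 1.33 TPM without. Neither gene was called in either comparison, with adjusted p from 0.327 to 0.635 (limma).

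Counted by overlap alone, Bcl2l1, Bax and Bad were higher in every KO bead library than in any unstimulated KO library, 3 of 10 where 11.2% of all tested genes were. In WT cells Bcl2l1, Mcl1, Bax, Bak1 and Bid were, 5 of 10 against 8.61% of all genes. Pmaip1 was lower without overlap in WT cells, 1 of 10 against 20.9% of all genes, and 0 of 10 were in KO cells, against 11.5% of all genes.

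**Figure D2:**
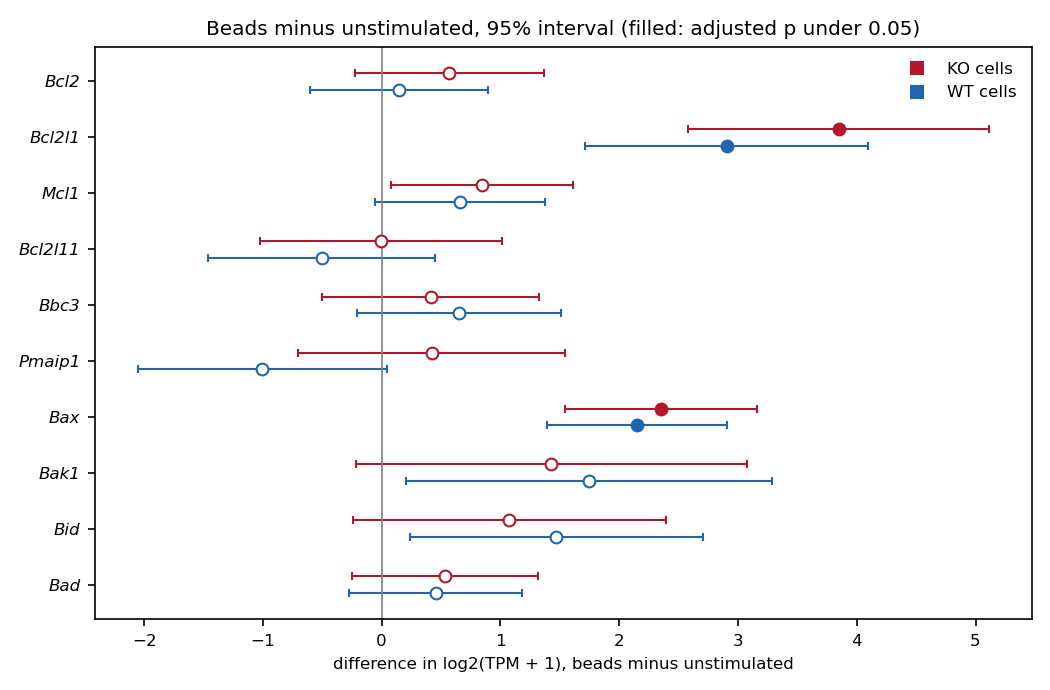
Difference between bead and unstimulated libraries in log2(TPM + 1) (x axis) for each gene, with KO cells above WT cells and the 95% interval from limma as bars. Filled points, Bcl2l1 and Bax in both kinds of cell, have an adjusted p under 0.05 over all tested genes.

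**Figure D3:**
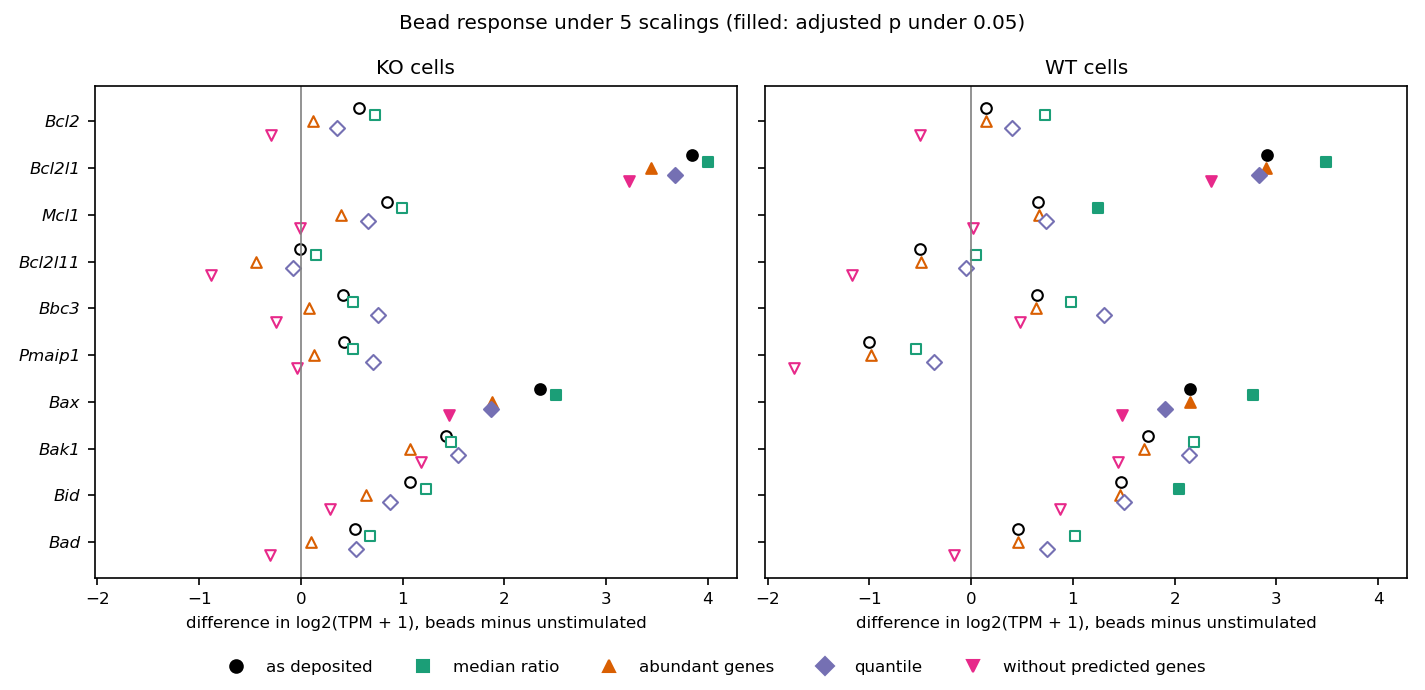
The same bead difference in log2(TPM + 1) (x axis) under 5 scalings of the libraries (symbols), for KO cells on the left and WT cells on the right. Bcl2l1 and Bax are filled under every scaling, while Bcl2 in both kinds of cell and Mcl1 in KO cells fall on either side of 0.

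The wider pathway with beads was read from 4 lists. Over all tested genes, as given above, 5.95% rose and 2.15% fell in KO cells, and 4.6% rose and 6.63% fell in WT cells. Of 22 regulators of these genes, 9 rose and 1 fell in KO cells, and 8 rose and 1 fell in WT cells. Their median log2 differences were 0.87 and 0.25 in the same order, against -0.23 and -0.44 over all genes. Over the 5937 genes whose mean reached 20 TPM in some group, the medians were 0.74 and 0.19. Myc, a growth regulator that also primes cells for death, had 128 and 158 TPM in KO cells with beads, against 1.57 to 7.85 TPM without. In WT cells Myc had 140, 179 and 168 TPM with beads, against 3.05 to 9.36 TPM without. Its log2 differences were 4.88 in KO cells (SE 0.46, adjusted p = 4.23e-05, limma) and 4.59 in WT cells (SE 0.43, adjusted p = 6.16e-05, limma). Il7r, the receptor chain through which interleukin-7 supports Bcl2 in resting T cells, fell to 7.31 and 7.83 TPM in KO cells with beads, against 15.5 to 47.2 TPM without. It fell to 3.75 to 6.06 TPM in WT cells with beads, against 41.5 to 75.7 TPM without.

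Trp53, the activator of Bax, Bbc3 and Pmaip1 under stress, rose in both kinds of cell, by 2.23 in KO cells and 1.64 in WT cells on the log2 scale. Stat5a (2.24 and 1.71), Jak3 (2.22 and 1.21) and Il2rg (1.70 and 0.98), which carry the interleukin-2 signal, rose too, as KO and WT log2 differences in that order. The kinase gene Pim2 (3.23 and 2.41), the BIM-binding light chain gene Dynll1 (2.13 and 2.59) and the 14-3-3 gene Ywhaz (1.45 and 0.93) rose in both. Hif1a, an oxygen-sensing factor, was called higher in KO cells alone (1.61). In WT cells it had 54.85 to 74.5 TPM with beads, against 25.3 to 44.8 TPM without. Under the 4 other scalings none of these called differences changed sign, and Myc, Il7r, Trp53 and Stat5a were called each time in both kinds of cell. In KO cells Dynll1 was called under 2 of the 4, and Ywhaz and Hif1a under 3. In WT cells Il2rg, Ywhaz and Pim2 were called under 2 of the 4, and Jak3 under 3.

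Of 20 other family members and relatives tested out of 21, 5 rose and 0 fell in KO cells, and 2 rose and 1 fell in WT cells, where 11.2% of all genes were called. Vdac2 and Vdac3, channel genes of the outer mitochondrial membrane, rose in both, and Vdac2 had 124 and 158 TPM in KO cells with beads, against 18.4 to 49.2 TPM without. Vdac1 was called higher in KO cells alone (1.71), a call kept under 1 of the 4 other scalings. In WT cells Vdac1 had 43.7 to 54.1 TPM with beads, against 11.4 to 24.3 TPM without. Bcl2a1b and Bcl2a1d, survival genes induced through NF-kappa B, were called higher in KO cells alone (3.92 and 4.49). In WT cells Bcl2a1b had 102 to 110 TPM with beads, against 10.6 to 39.4 TPM without. Bcl2a1d had 31.7 to 50.4 TPM in WT cells with beads, against 0 to 17.5 TPM without. Near-identical copies of this gene share reads, so the separate values of the copies are uncertain. Bcl2l15 fell in WT cells (-1.77), to 6.25 to 12.3 TPM with beads, against 30.9 to 45.1 TPM without. The median log2 difference of this list was 0.61 in KO cells and 0.44 in WT cells.

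Of 19 genes of the apoptosome, caspases and inhibitors, 1 rose and 0 fell in KO cells, and 2 rose and 1 fell in WT cells, counts near the all-gene shares of 8.11% in KO cells and 11.2% in WT cells. Cycs, which encodes the cytochrome c that BAX and BAK release, had 17.4 and 21.9 TPM in KO cells with beads, against 0.787 to 5.77 TPM without. In WT cells Cycs had 25.98, 24.8 and 25.5 TPM with beads, against 3.89 to 6.17 TPM without. Birc5, a division and survival gene, was called higher (1.43) and Dffa, an inhibitor of the caspase-activated nuclease, lower (-1.12) in WT cells alone. Each was called there under 3 of the 4 other scalings. In KO cells Birc5 had 20.5 and 31.2 TPM with beads, against 7.04 to 13.8 TPM without. Dffa had 219 and 277 TPM in KO cells with beads, against 302 to 567 TPM without. Of 12 death receptor genes, Ripk3, a kinase of necroptosis, rose in both kinds of cell (2.07 in KO cells and 1.88 in WT cells), calls kept under 2 and 3 of the 4 other scalings. Casp8, the initiator caspase that cuts BID, was called higher in KO cells alone (1.07), a call kept under 1 of the 4 other scalings. In WT cells Casp8 had 36.0 to 47.8 TPM with beads, against 23.1 to 33.2 TPM without. No gene of the 4 lists was called for a difference between KO and WT bead responses in limma. The medians of the apoptosome and death receptor lists were 0.47 and 0.62 in KO cells, and 0.14 and -0.081 in WT cells. Rescaled without predicted genes, the medians of regulators, relatives, apoptosome genes and death receptor genes were 0.045, -0.11, -0.16 and -0.063 in KO cells. In WT cells they were -0.37, 0.11, -0.52 and -0.71, and most of the medians were negative. Over all genes under that scaling the median was -0.76 in KO cells and -0.92 in WT cells. Over the genes whose mean reached 20 TPM in some group it was 0.16 in KO cells and -0.15 in WT cells. Under that scaling 825 of 21234 tested genes rose and 2629 fell in KO cells (16.3% called). In WT cells 746 rose and 3745 fell (21.2% called). Of the regulators 6 rose and 4 fell in KO cells, and 4 rose and 3 fell in WT cells. Of the relatives 3 rose and 1 fell in KO cells, and 2 rose and 2 fell in WT cells. Of the apoptosome list 1 rose and 3 fell in KO cells, and 1 rose and 5 fell in WT cells. Of the death receptor list 0 were called in either by limma.

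The second question was whether loss of DOCK8 changes these genes, and none of the 10 was called. In unstimulated cells 0 of 10 passed in limma, where 0.0734% of all tested genes did (0.00667% higher and 0.0667% lower in KO cells), and 1 of 10 had an unadjusted p under 0.05, against 11.3% of all genes. With beads 0 of 10 passed, where 0.00333% of all genes did, and 0 had an unadjusted p under 0.05, against 2.89%. No gene of the 10 kept its unstimulated KO and WT ranges apart, against 0.293% of all genes higher and 1.27% lower in KO cells. The median log2 difference of the 10 was -0.12 in unstimulated cells, beside -0.11 over all genes, and it was positive under each of the 4 other scalings (0.030 to 0.17). With beads it was 0.0057, beside 0.13 over all genes, and under the 4 other scalings it was -0.27, -0.10, -0.14 and 0.15, negative in 3 of 4.

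Pmaip1 was the gene with an unadjusted p under 0.05. In unstimulated KO cells it was at 0, 1.78 and 3.58 TPM (lowest, median and highest), against 5.66, 3.42, 6.15 and 7.10 TPM in unstimulated WT cells. The groups overlapped through 1 KO library at 3.58 TPM and 1 WT library at 3.42 TPM. The log2 difference was -1.37 (SE 0.42, unadjusted p = 0.00487, adjusted p = 0.232, limma), and it lay between -2.17 and -0.65 under the alternatives, with adjusted p from 0.155 to 0.513. With beads the difference was 0.057 (95% interval -1.20 to 1.31).

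For the survival genes the intervals were these in unstimulated cells, KO minus WT on the log2 scale. Bcl2 differed by 0.18 (95% interval -0.46 to 0.81), Mcl1 by -0.21 (95% interval -0.82 to 0.39) and Bcl2l1 by -0.90 (95% interval -1.91 to 0.10). The Bcl2l1 difference was negative under all 28 alternatives, with adjusted p from 0.378 to 0.842, and its groups overlapped, at 1.28 to 9.68 TPM in KO cells and 3.30 to 17.6 TPM in WT cells. With beads Bcl2 had 14.8 and 22.4 TPM in KO cells, both above the 13.8, 9.16 and 12.5 TPM in WT cells. That difference was 0.60 (95% interval -0.290 to 1.496), and 1 of 10 genes was higher without overlap, against 17.4% of all genes.

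None of the pore formers and BH3-only genes other than Pmaip1 had an interval that left out 0. In unstimulated cells Bax differed by -0.54 (95% interval -1.18 to 0.094), Bcl2l11 by 0.24 (95% interval -0.57 to 1.04) and Bbc3 by 0.70 (95% interval -0.026 to 1.42). The Bax difference was 0.15 without the 4 unstimulated KO libraries in which dominating predicted genes took over 35% of TPM. Unstimulated WT library 2, at 36.1%, was also over this cut but was kept in that fit. With all libraries kept, Bak1, Bid and Bad lay between -0.18 and 0.070 in unstimulated cells. With beads Bax and Bid were lower in both KO libraries than in every WT library, 2 of 10 where 8.02% of all genes were, with adjusted p of 1 in limma. Bcl2l11 differed by 0.73 with beads (95% interval -0.41 to 1.88).

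**Figure D4:**
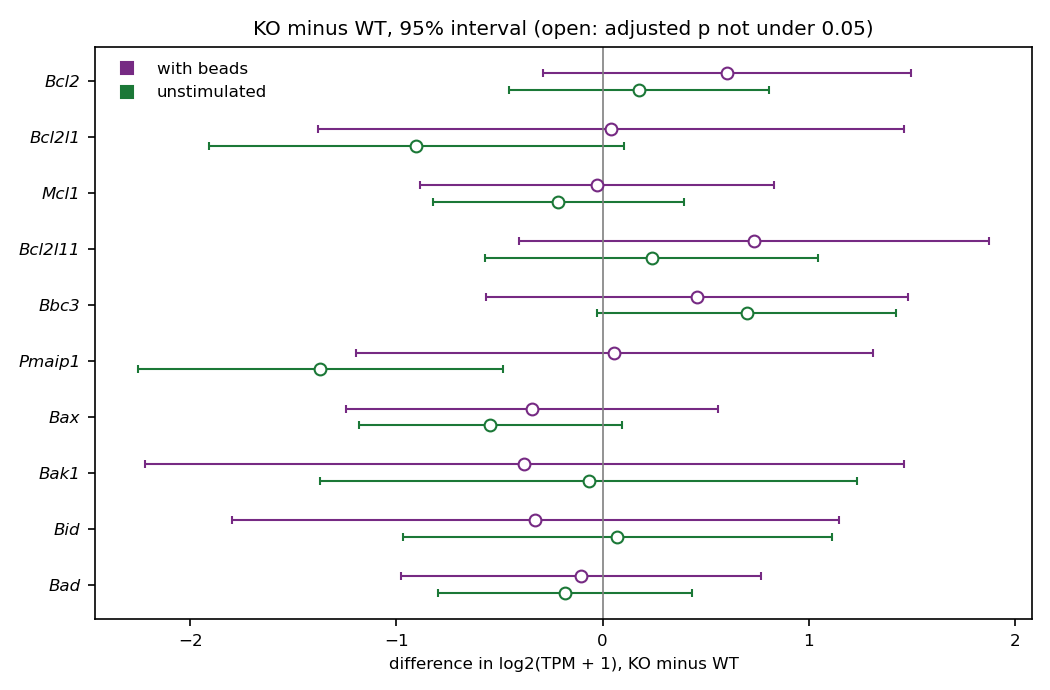
Difference between KO and WT cells in log2(TPM + 1) (x axis) for each gene, with bead libraries above unstimulated libraries and the 95% interval from limma as bars. All points are open (adjusted p not under 0.05), and of the 20 intervals only that of Pmaip1 in unstimulated cells leaves out 0.

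None of the 4 pathway lists had a member called between genotypes in limma. In unstimulated cells 18 of 22 regulators, 18 of 20 relatives, 18 of 19 apoptosome and caspase genes and 11 of 12 death receptor genes had a negative KO minus WT difference. The list medians were -0.57, -0.59, -0.69 and -0.46 in that order, beside -0.11 over all genes and -0.44 over the 5937 genes whose mean reached 20 TPM in some group. The genes with the smallest p were Jak3 (-1.03, adjusted p = 0.214), Bnip2 (-0.92, adjusted p = 0.208), Casp6 (-1.02, adjusted p = 0.376) and Tnfaip3 (-1.71, adjusted p = 0.196). The predicted-gene share was higher in unstimulated KO than in unstimulated WT libraries on the ranges given above, and its part in these medians was not tested. Under scaling to abundant genes the medians were -0.23, -0.35, -0.34 and -0.16, and all 4 were negative under each of the other scalings too. Over the genes whose mean reached 20 TPM in some group the median was also negative under every scaling. It was -0.093 under scaling to abundant genes, -0.27 under median-ratio scaling, -0.21 after quantile normalization and -0.16 after rescaling without predicted genes.

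The third question was whether the bead response differs between KO and WT cells, tested as the difference of the 2 differences. None of the 10 was called in limma, where 0.00333% of all genes were, and 0 had an unadjusted p under 0.05, against 4.16% of all genes. Pmaip1 came closest, with a KO response that was 1.43 higher than the WT response on the log2 scale (95% interval -0.11 to 2.96, unadjusted p = 0.0661, adjusted p = 0.999). Bcl2l1 had a difference of 0.94 (95% interval -0.80 to 2.68) and Bax of 0.20 (95% interval -0.91 to 1.31). With 2 KO bead libraries these intervals stay wide, and they do not show that the responses were alike.

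Ratios of 2 genes within a library do not change with that library's scale, apart from the added pseudocount of 1 TPM. The log2 ratio of Bcl2l1 to Bcl2 was 2.29 and 1.19 in KO cells with beads, and 1.80, 2.73 and 2.38 in WT cells with beads. Without beads it spanned -2.87 to 0.48 in KO cells and -1.75 to 0.53 in WT cells. Bcl2l1 thus exceeded Bcl2 in all 5 bead libraries and in 1 of 6 KO and 2 of 4 WT unstimulated libraries. The ratio of Bcl2 to Bcl2l11 averaged 0.72 in KO cells with beads, 0.85 in WT cells with beads, 0.14 in unstimulated KO cells and 0.20 in unstimulated WT cells, and the ranges overlapped.

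Mcl1 over Bcl2l11 averaged 0.90 ± 0.63 (SD, n = 2) in KO cells with beads and 1.66 ± 0.66 (SD, n = 3) in WT cells with beads. Without beads this ratio averaged 0.045 ± 0.66 (SD, n = 6) in KO cells and 0.50 ± 0.57 (SD, n = 4) in WT cells. Mcl1 was below Bcl2l11 in 3 of the 6 unstimulated KO libraries and above it in all 4 unstimulated WT libraries, though the ranges overlapped. Mcl1 over Pmaip1 averaged 2.71 in KO cells with beads (2.05 to 3.37) and 2.79 in WT cells with beads (2.51 to 3.25). Without beads it averaged 2.28 in unstimulated KO cells (1.53 to 3.21) and 1.13 in unstimulated WT cells (0.59 to 1.91). The WT libraries with beads all lay above those without, and the KO libraries overlapped. These ratios were not tested.

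**Figure D5:**
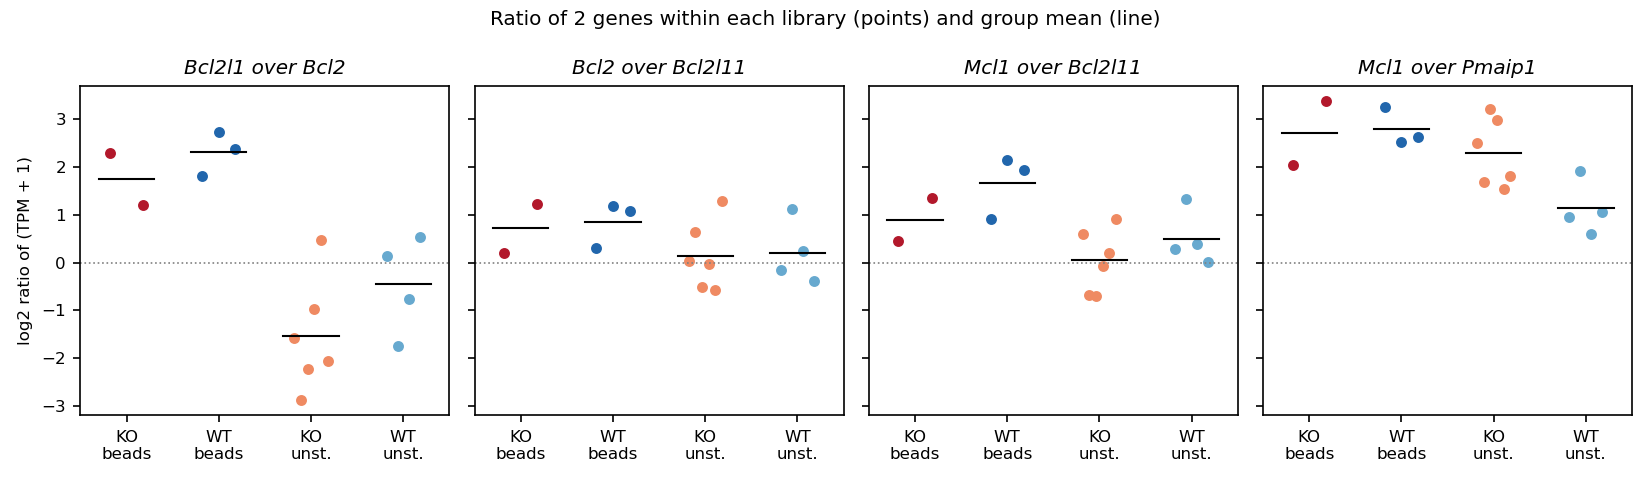
log2 ratio of (TPM + 1) of 2 genes within each library (y axis, points), with the group mean as a line, for KO and WT cells with beads and KO and WT unstimulated cells (unst.). The ratio of Bcl2l1 to Bcl2 lies at 1.19 or above in the 5 bead libraries and at 0.53 or below in the 10 unstimulated ones.

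The genes whose levels followed a member most closely were sought over the 15 libraries among 4605 named genes whose mean reached 20 TPM in some group. They are given as a description, since all genes of a library share its scale and its bead group. For Mcl1 they were Tm9sf2 (Pearson r 0.94), Rhoa (0.94) and Prkag1 (0.93). With group means removed these were 0.89, 0.89 and 0.86. For Bcl2l11 they were Eci2 (0.81), Ift80 (0.79) and Dnm2 (0.76), and 0.82, 0.84 and 0.78 with group means removed. For Bcl2 they included Snd1 (0.83) and Mir697 (0.74), and 0.89 and 0.69 with group means removed.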

How the data were processed

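The authors deposited a TPM value for each Ensembl gene in each library, in lists of 36904 genes (unstimulated) and 31785 genes (beads). The submitters' processing notes name mm10, STAR, Salmon and DESeq2, without versions or roles, and the annotation is not stated in these sources. The listed TPM summed to 819697 to 938139 per library. TPM keep no depth, so no count model was used. The 30949 genes in all 15 lists were named from GENCODE vM21 and kept at 1 TPM or more in at least 2 libraries.

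A linear model of log2(TPM + 1) with 4 group means was fitted with limma 3.58.1 (R 4.3.3, trend option, 11 residual degrees of freedom), after it had been tested on simulated data. P-values of each contrast were adjusted over 29989 genes (21234 after rescaling without predicted genes) by the Benjamini-Hochberg procedure. Adjusted values under 0.05 count as calls. Differences on this scale understate changes of low genes. Dock8 was compared by exact permutation over libraries. Ratios within a library were left untested.

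The 10 genes, the pathway lists, the tests and the rule for naming genes were chosen with earlier results of these data known. The rule names the 10 genes and Dock8, every called gene of 4 pathway lists, otherwise up to 4 per list with the smallest p, and the 3 genes with the highest Pearson r to Bcl2, Bcl2l11 and Mcl1, leaving out predicted and RIKEN genes. One gene that this rule names is not reported here. BH3 cores were found in GENCODE reading frames, and promoters come from RefSeq (GRCm38.p6). Alternatives were pseudocounts of 0.1 and 5 TPM, other filters and scalings, limma array weights, fits to the compared groups alone, a block for title numbers, and libraries left out.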

Additional observations from a re-analysis of the deposited data

Results flagged for a closer look

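Chance flags about 1 in 20 groups, and 5 single values stood apart among 64 groups of 4 or 6 libraries checked. The groups covered the 10 genes, Dock8 and the pathway genes called with beads. Bak1 was 8.60 TPM in unstimulated KO library 5, against 1.70 TPM in the next of the 6. Vdac1 was 33.9 TPM in unstimulated KO library 3, against 10.4 TPM in the next. In unstimulated WT cells, Bcl2a1b was 10.6 TPM in library 1, against 36.5 TPM in the next of the 4. Bcl2l15 was 45.1 TPM and Pim2 was 33.0 TPM in unstimulated WT library 3, against 32.5 and 9.36 TPM in the next. The difference between KO and WT bead responses was called for none of these genes.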

How the results depend on the processing

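Calls were recomputed under 28 alternatives, 15 of which left out 1 library each. Bcl2l1 was called higher with beads in KO and in WT cells under all 28, and Bax under all 28 in WT cells and under 27 in KO cells, the exception being without KO bead library 5. Of the genes fitted, 0 were called between genotypes under the 28 alternatives or for the difference of bead responses under 27, which leaves out the fit to the compared groups alone, and Bbc3 could not be fitted under the 5 TPM filter. For the KO bead response 2 were called, and 1 to 2 with 1 library left out. For the WT bead response 2 were called, 4 under median-ratio scaling (with Mcl1 and Bid), and 2 to 3 with 1 library left out. Bid was also called in the fit to the compared groups alone, with array weights, and without the unstimulated KO libraries high in predicted genes. Over all genes, 22 were called in the unstimulated KO minus WT comparison (2 to 67 under the alternatives), 1 with beads (0 to 19), 2431 for the KO bead response (380, without KO bead library 5, to 3961), 3366 for the WT bead response (1650, without WT bead library 3, to 6042) and 1 for the difference (0 to 6). The median log2 difference over all genes, as deposited and then under median-ratio scaling, scaling to abundant genes, quantile normalization and rescaling without predicted genes, was -0.11, -0.00069, 0.12, 0.019 and 0.085 for unstimulated KO minus WT, and 0.13, -0.022, 0.064, -0.0081 and 0.22 with beads. For the KO bead response it was -0.23, -0.14, -0.46, -0.091 and -0.76, and for the WT bead response -0.44, -0.15, -0.42, -0.052 and -0.92. Of 50 single-gene differences, 4 were called and 0 of these changed sign, while 27 of the 46 not called did so under some alternative, and the cause was not tested. Under median-ratio scaling, the unstimulated KO minus WT difference turned to 0.079 for Bak1 and the KO minus WT difference with beads turned to -0.24 for Bcl2l1 and -0.15 for Pmaip1. There the KO bead response turned to 0.15 for Bcl2l11, the WT bead response turned to 0.044 for Bcl2l11 and the difference of bead responses turned to -0.25 for Mcl1, -0.26 for Bax and -0.35 for Bad. Under scaling to abundant genes, the unstimulated KO minus WT difference turned to 0.13 for Mcl1, 0.17 for Bak1 and 0.16 for Bad, the KO minus WT difference with beads turned to -0.069 for Bcl2l1 and -0.020 for Pmaip1 and the difference of bead responses turned to -0.032 for Bcl2, -0.27 for Mcl1, -0.28 for Bax and -0.36 for Bad. After quantile normalization, the unstimulated KO minus WT difference turned to 0.095 for Bak1, the KO minus WT difference with beads turned to -0.19 for Pmaip1 and the difference of bead responses turned to -0.043 for Bcl2, -0.081 for Mcl1, -0.026 for Bcl2l11, -0.036 for Bax and -0.20 for Bad. After rescaling without predicted genes, the unstimulated KO minus WT difference turned to 0.15 for Mcl1 and 0.18 for Bad and the KO minus WT difference with beads turned to 0.12 for Mcl1 and 0.040 for Bad. There the KO bead response turned to -0.30 for Bcl2, -0.0092 for Mcl1, -0.24 for Bbc3, -0.041 for Pmaip1 and -0.30 for Bad, the WT bead response turned to -0.50 for Bcl2 and -0.16 for Bad and the difference of bead responses turned to -0.031 for Mcl1, -0.026 for Bax and -0.14 for Bad. With a pseudocount of 0.1 TPM, the KO bead response turned to 0.0019 for Bcl2l11 and the difference of bead responses turned to 0.17 for Bak1. With a pseudocount of 5 TPM, the unstimulated KO minus WT difference turned to 0.065 for Bak1. With array weights, the KO bead response turned to 0.068 for Bcl2l11. Without the 2 unnumbered libraries, the unstimulated KO minus WT difference turned to 0.070 for Bak1 and the KO bead response turned to 0.033 for Bcl2l11. Without the 4 unstimulated KO libraries high in predicted genes, the unstimulated KO minus WT difference turned to 0.30 for Mcl1 and 0.15 for Bax. In that fit the difference of bead responses turned to -0.33 for Mcl1, -0.49 for Bax and 0.51 for Bak1. Unstimulated WT library 2, also over the 35% cut, was kept in it. With 1 library left out at a time, the unstimulated KO minus WT difference spanned -0.51 to 0.15 for Bak1 and -0.17 to 0.46 for Bid. The KO minus WT difference with beads spanned -0.22 to 0.30 for Bcl2l1, -0.39 to 0.50 for Pmaip1, -1.34 to 0.58 for Bak1, -0.25 to 0.19 for Mcl1 and -0.40 to 0.20 for Bad. The KO bead response spanned -0.23 to 0.22 for Bcl2l11 and -0.025 to 0.87 for Pmaip1. The difference of bead responses spanned -0.22 to 0.38 for Bad, -1.28 to 0.65 for Bak1, -0.44 to 0.12 for Bbc3 and -0.031 to 0.41 for Mcl1.

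The labels do not say what the numbers in the titles share, and the data do not settle whether libraries of 1 number share a mouse. The correlation of deviations between libraries of 1 number lay between -0.037 and 0.055 over 5937 genes, and not every library correlated best with its own number. Between the unnumbered unstimulated KO and WT libraries it was 0.12. The KO bead libraries carry numbers 4 and 5 and the WT bead libraries 1, 2 and 3. No number holds both, so a block for numbers compares genotypes with beads only through the unstimulated libraries. With the replicate block, the unstimulated KO minus WT difference turned to -0.21 for Bid. The KO minus WT difference with beads turned to -0.65 for Bcl2l1, -0.93 for Pmaip1 and 0.35 for Bax under the block. There the KO bead response turned to 0.56 for Bcl2l11 and -0.14 for Pmaip1 and the difference of bead responses turned to -0.019 for Bad. The block left the same 2 genes called in each bead response and 0 elsewhere. Over all genes it called 2 in the unstimulated KO minus WT comparison and 1136 for the KO bead response. TPM keep no depth, so the counting error of low genes such as Bbc3 cannot be given.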
